A study of Mus musculus with 2 samples.

Results

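The 8 genes described here carry the canonical Wnt signal in the endothelium of the blood-brain and blood-spinal cord barrier: Lef1, Ctnnb1, Axin2, Apcdd1, Fzd4, Fzd6, Lrp5 and Tspan12. They were taken by gene symbol from the 27998 genes of both count tables, and all 8 were found. Their levels were read in endothelial-like, mural-like and microglia-like cells of mouse spinal cord. Both libraries came from Cx3cr1-CreERT2-YFP::flxRunx1 mice on the C57BL/6J background, which join a tamoxifen-inducible Cre and a yellow fluorescent protein at Cx3cr1, a gene of microglia and other mononuclear phagocytes, to a floxed Runx1. The library labelled wild type was made after vehicle, and the library labelled Runx1 knock-out after 5 daily intraperitoneal injections of tamoxifen at 1 mg per day. Spinal cord was taken 4 weeks after the first injection, and fluorescent cells were sorted into 10x 3' libraries. The knock-out and tamoxifen cannot be told apart, and the sources used here do not state the age or number of the animals. The Cre driver sits at a myeloid gene and the sort was set on the fluorescent protein it carries, so the vessel cells described here are those that passed that gate. Each group had 1 library, so there was no replicate and no test, and every interval below is a 95% interval for counting error only.

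In canonical Wnt signalling a ligand joins a Frizzled receptor to the coreceptor Lrp5 or Lrp6, the destruction complex built on Axin is held back, and beta-catenin (Ctnnb1) reaches the nucleus, where it works with Lef1 and the other TCF/LEF factors. In endothelium of the central nervous system the ligands come mainly from neural and glial cells. Wnt7a and Wnt7b act through the coactivators Reck and Adgra2 (Gpr124), and norrin (Ndp) acts through Fzd4, Lrp5 and the tetraspanin Tspan12. Axin2, Apcdd1, Notum and Nkd1 are classic targets that feed back on the pathway, and the signal is known for keeping up barrier genes such as Cldn5, Slc2a1 and Mfsd2a.

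The wild-type library held 4582 barcodes and 37446978 UMIs, and the library labelled Runx1 knock-out held 2604 barcodes and 13075939 UMIs, with 9 barcode sequences present in both. Endothelial-like cells numbered 1627 and 857, mural-like cells 181 and 118, and microglia-like cells 2175 and 1356, in the wild-type vehicle library and the library labelled Runx1 knock-out. The members and the other Wnt genes were left out of the clustering, so they did not choose the classes. The libraries separated in it: endothelial-like cells lay mostly in joint cluster 1 (1620 and 20 cells) and joint cluster 3 (2 and 815 cells). Median depth per endothelial-like cell was 5938 and 3618 UMIs. All 12 endothelial markers were detected in the endothelial-like cells of both libraries. All 12 microglial markers were detected there as well, at a summed level of 9190 CPM (counts scaled to all UMIs of the class) in the wild-type vehicle library and 3679 CPM in the library labelled Runx1 knock-out, against 25852 and 28963 CPM in microglia-like cells. Taking free RNA to mirror its whole library, these sums set an upper limit of 52.0% and 21.8% on its share in endothelial-like cells. A joint cluster of 445 and 134 cells (cluster 4) carried markers of both classes and was left unnamed. Runx1, the targeted gene, was at 92.9 CPM in wild-type microglia-like cells and 181 CPM in those of the library labelled Runx1 knock-out. Its summed 3' tags were thus higher, not lower, under the knock-out label, and the sources used here do not say where the deleted part lies.

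For most of the 8 genes the highest levels were in the vessel wall. Of the 8 members, 6 reached 20 CPM in endothelial-like cells, the level set for a measured gene, and each of these 6 was at least 2-fold higher in endothelial-like than in microglia-like cells in both libraries. Of 6161 genes measured for this contrast, 15.3% did the same. Axin2, Fzd4, Fzd6 and Tspan12 were under 20 CPM in microglia-like cells of both libraries. They thus entered only through the endothelial side, where they are higher, and the count of 6 partly follows from this filter. Lrp5 and Apcdd1, under 20 CPM in both classes, were left out. Lrp5 was at 12.1 and 7.70 CPM in endothelial-like and microglia-like wild-type cells. None of the 6 was 2-fold higher in endothelial-like than in mural-like cells in both libraries, as for nearly all genes: 0.212% of 6125 were.

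Ctnnb1, which encodes beta-catenin itself, was at 313 CPM (303 to 323) in endothelial-like, 280 CPM (257 to 304) in mural-like and 115 CPM (110 to 121) in microglia-like wild-type cells. In the library labelled Runx1 knock-out its levels were 374 CPM (355 to 393), 304 CPM (266 to 345) and 87.0 CPM (79.8 to 94.7). The order endothelial, mural, microglia was the same in both libraries, and the gap to microglia was the narrowest among the 6 measured members, at 2.71-fold and 4.30-fold. Beta-catenin is also a part of adherens junctions, so its transcript is not a readout of the signal alone.

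Lef1, the nuclear partner of beta-catenin, stood at 177 CPM (169 to 185) in endothelial-like, 111 CPM (96.4 to 126) in mural-like and 39.9 CPM (36.8 to 43.2) in microglia-like wild-type cells. In the library labelled Runx1 knock-out the corresponding levels were 259 CPM (243 to 275), 126 CPM (102 to 154) and 18.7 CPM (15.4 to 22.5). Lef1 was the measured member whose endothelial level lay farthest above the mural one, by 1.60-fold and 2.05-fold, and these intervals did not overlap. Cluster 4 lay near the mural level, at 116 and 143 CPM. Endothelial-like cells held 55.0% of all Lef1 UMIs in the wild-type vehicle library and 70.4% in the library labelled Runx1 knock-out.

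The feedback gene Axin2, a scaffold of the destruction complex and a direct Wnt target, was at 43.8 CPM (40.1 to 47.7) in endothelial-like, 34.0 CPM (26.3 to 43.2) in mural-like and 9.69 CPM (8.21 to 11.4) in microglia-like wild-type cells. In the library labelled Runx1 knock-out it was at 67.4 CPM (59.7 to 75.7), 45.0 CPM (31.4 to 62.6) and 3.58 CPM (2.24 to 5.42). The endothelial to mural log2 ratio of Axin2 was 0.36 (-0.0045 to 0.75) and 0.58 (0.07 to 1.13), and both classes lay above microglia. Apcdd1, a membrane inhibitor of Wnt signalling, was nearly absent: 39 UMIs in 1627 wild-type endothelial-like cells gave 3.29 CPM (2.34 to 4.50), and 17 UMIs in 857 cells of the library labelled Runx1 knock-out gave 4.09 CPM (2.38 to 6.55). Mural-like cells had 10 UMIs and 1 UMI of Apcdd1 and microglia-like cells 29 and 10, so no order between classes can be read for it at this depth.

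Among the receptors, Fzd4, the norrin receptor, was at 49.8 CPM (45.9 to 54.0), 44.1 CPM (35.4 to 54.4) and 15.8 CPM (13.9 to 18.0) in endothelial-like, mural-like and microglia-like wild-type cells. The same classes of the library labelled Runx1 knock-out had 54.4 CPM (47.5 to 61.9), 45.0 CPM (31.4 to 62.6) and 9.60 CPM (7.31 to 12.4). Endothelial and mural levels were not separated by their intervals in either library. Fzd6, a Frizzled also linked to planar polarity, was at 69.6, 61.9 and 19.3 CPM in the wild-type vehicle library and at 77.5, 77.2 and 6.83 CPM in the library labelled Runx1 knock-out, again with endothelial and mural levels not separated by their intervals.

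Tspan12, which strengthens norrin signalling through Fzd4, had the steepest endothelial to microglial fall of all 8 genes. It was at 60.3 CPM (56.0 to 64.9) in endothelial-like, 58.9 CPM (48.6 to 70.6) in mural-like and 7.38 CPM (6.09 to 8.86) in microglia-like wild-type cells. In the library labelled Runx1 knock-out it was at 81.5 CPM (73.1 to 90.7), 57.9 CPM (42.2 to 77.5) and 2.60 CPM (1.49 to 4.23). The endothelial to microglial ratio was 8.17-fold in the wild-type vehicle library and 31.3-fold in the other. The endothelial to mural log2 ratio of Tspan12 was 0.04 (-0.25 to 0.33) and 0.49 (0.04 to 0.98). Lrp5, the coreceptor, had no such fall: its levels were 12.1 CPM (10.2 to 14.3), 14.2 CPM (9.44 to 20.5) and 7.70 CPM (6.38 to 9.21) in the same wild-type classes, and 18.3 CPM (14.4 to 22.9), 27.0 CPM (16.7 to 41.3) and 14.97 CPM (12.1 to 18.4) in the library labelled Runx1 knock-out. In the library labelled Runx1 knock-out the endothelial and microglial intervals of Lrp5 overlapped.

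**Figure D1:**
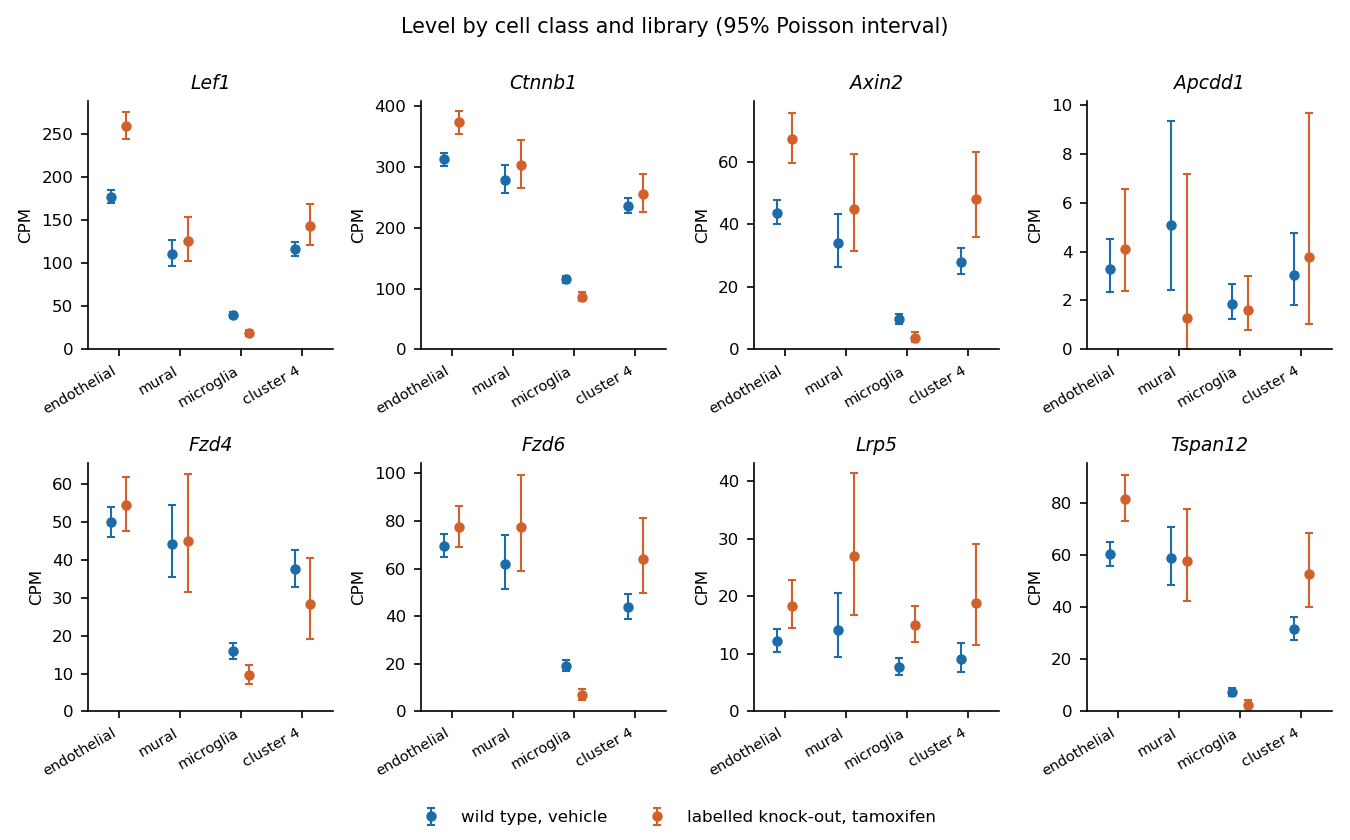
Level of each member in CPM (vertical axis from 0, its own scale per gene) in endothelial-like, mural-like and microglia-like cells and in the unnamed cluster 4, with points for the wild-type library (blue) and the library labelled Runx1 knock-out (orange) and bars for 95% Poisson intervals. In 6 panels microglia-like cells lie far below both vessel classes; Lrp5 and the sparse Apcdd1 lack this step.

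Endothelial RNA is present in all classes of these libraries, so the members were set beside the 12 endothelial marker genes. In wild-type microglia-like cells the 12 markers had 17.7% (Cdh5) to 56.0% (Ptprb) of their endothelial level, with a median of 34.8%. In the microglia-like cells of the library labelled Runx1 knock-out they had 7.96% (Flt1) to 41.3% (Ptprb), with a median of 10.6%. In the wild-type vehicle library 5 of the 8 members lay inside the range: Lef1 (22.6% of its endothelial level), Axin2 (22.1%), Fzd6 (27.7%), Fzd4 (31.8%) and Ctnnb1 (36.9%). Under the knock-out label 4 of 8 did, namely Fzd4, Fzd6, Ctnnb1 and Apcdd1. Tspan12 lay below the range in both libraries, at 12.2% and 3.19%, and Lef1 (7.23%) and Axin2 (5.31%) lay below it in the library labelled Runx1 knock-out. Lrp5 lay above the range in both libraries, at 63.4% and 81.9%, and Apcdd1, with 29 microglial UMIs, just above it in the wild-type vehicle library at 56.6%. These placements are of point values, without counting error. Lef1 under the knock-out label, with 115 microglial UMIs, lay close to the lower end of 7.96%. The low microglial levels under the knock-out label depended on the clustering: Lef1, Axin2 and Tspan12 were at 37.3, 10.5 and 10.6 CPM there at resolution 1.0, and at 51.4, 14.9 and 15.2 CPM with the libraries clustered separately. In these runs 141 and 150 cells of this library, first placed in vessel clusters, were renamed microglia and joined the class. At resolution 1.0 the unnamed cluster held 436 and 2 cells, against 445 and 134 in cluster 4 of the main clustering. Whether the renamed cells are those of cluster 4, and their part in these levels, was not tested.

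In mural-like cells 4 of the 8 members lay inside the range of the endothelial markers in each library, and 3 of them in both. The 12 markers had 66.1% to 94.5% of their endothelial level in wild-type mural-like cells and 60.3% to 84.0% in those of the library labelled Runx1 knock-out. Axin2 (77.7% and 66.9%), Fzd4 (88.6% and 82.8%) and Ctnnb1 (89.4% and 81.2%) fell inside the range in both libraries. Lef1 lay below the range in both, at 62.5% and 48.8%, and Lrp5 lay above it in both, at 117% and 148%. Tspan12 was above it in the wild-type library only (97.6%, then 71.0%), and Fzd6 in the library labelled Runx1 knock-out only (89.0%, then 99.7%). Apcdd1 was above it at 154% on 10 mural UMIs and below it at 31.5% on 1 UMI. These placements too are of point values, without counting error. In the wild-type library Lef1 and Tspan12 lay close to an end of the range, and Lrp5 rests on 28 and 21 mural UMIs. Whether mural cells transcribe these genes themselves was not tested.

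**Figure D2:**
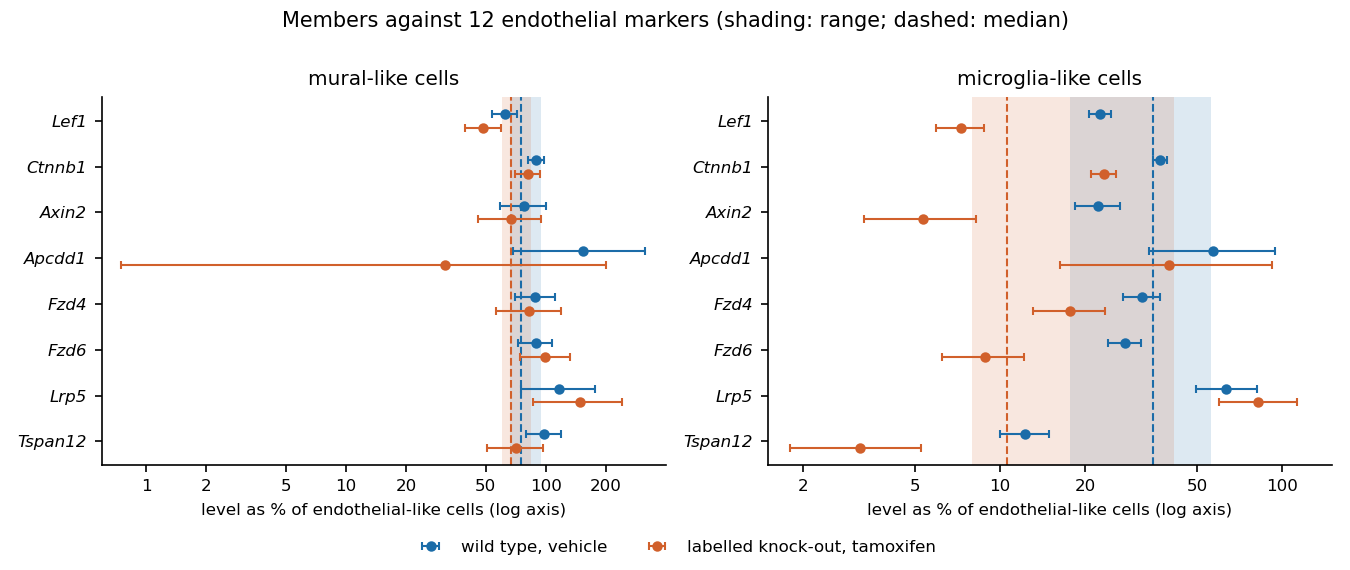
Level of each member in mural-like (left) and microglia-like cells (right) as a percent of its endothelial-like level, on log axes, with 95% counting intervals; shading gives the range and dashes the median of the 12 endothelial markers in each library (blue wild type, orange labelled knock-out). Lrp5 lies to the right of the shading in both panels. Among microglia-like cells each Tspan12 point lies to the left of the shading of its own library.

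By point values, Lef1, Axin2 and Tspan12 were the 3 members whose microglial level lay below the range of the endothelial markers in the library labelled Runx1 knock-out. The 250 bases before their RefSeq transcription start (build GRCm38.p6) are therefore shown, with the short TCF/LEF core CTTTG, or CAAAG on the other strand, in capitals. Each is given 5' to 3' on the strand of the gene. Lef1 has 4 such windows, of which the first is shown.
Lef1, chr3:131110047-131110296, plus strand: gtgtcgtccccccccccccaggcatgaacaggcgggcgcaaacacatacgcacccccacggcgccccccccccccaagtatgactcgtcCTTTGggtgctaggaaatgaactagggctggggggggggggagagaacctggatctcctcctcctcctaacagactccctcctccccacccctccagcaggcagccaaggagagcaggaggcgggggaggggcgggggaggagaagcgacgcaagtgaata
Axin2, chr11:108920099-108920348, plus strand: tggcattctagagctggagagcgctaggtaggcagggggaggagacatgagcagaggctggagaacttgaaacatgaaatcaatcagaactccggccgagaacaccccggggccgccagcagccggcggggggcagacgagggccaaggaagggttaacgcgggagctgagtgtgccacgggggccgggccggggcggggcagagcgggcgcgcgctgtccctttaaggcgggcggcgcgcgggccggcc
Tspan12, chr6:21852534-21852783, minus strand: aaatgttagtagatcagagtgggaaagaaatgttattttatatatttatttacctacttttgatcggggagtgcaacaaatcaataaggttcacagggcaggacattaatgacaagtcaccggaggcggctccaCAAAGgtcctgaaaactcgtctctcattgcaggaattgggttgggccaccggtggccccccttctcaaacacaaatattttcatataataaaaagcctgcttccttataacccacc
The core begins 161 bases before the start in the Lef1 window and 116 bases before it in the Tspan12 window, and it is not in these 250 bases of Axin2. Of all 32851 promoter windows in the table, 48.6% hold the core. The longer forms CTTTGAA and CTTTGAT, searched on both strands, are in none of the 9 windows of the 5 members found in the table (Lef1, Axin2, Tspan12, Fzd4 and Ctnnb1) and in 7.48% of all windows. These matches describe the letters only. On GRCm38 the genes lie at chr3:131110471-131224356 (Lef1), chr11:108920349-108950783 (Axin2), chr6:21771395-21852515 (Tspan12), chr9:120929216-120960507 (Ctnnb1), chr7:89404355-89413134 (Fzd4), chr15:39006034-39038188 (Fzd6) and chr19:3584828-3686564 (Lrp5), per GENCODE M21. Genes that overlap a member run antisense to it, and the largest count among them was 120 UMIs, for Gm43352 at Lef1.

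Single cells were then compared after thinning each to 1500 UMIs, a number that no cell fell below. Lef1 was detected in 22.5% (20.5 to 24.6) of wild-type endothelial-like cells and in 31.2% (28.1 to 34.4) of those of the library labelled Runx1 knock-out, against 5.84% and 2.29% of microglia-like cells, the comparison class here. How much of a member's RNA in that class is background and how much its own was not tested. Without thinning the endothelial shares were 62.1% and 61.5%. Ctnnb1 was detected in 36.9% (34.5 to 39.3) and 38.9% (35.6 to 42.2) of thinned endothelial-like cells and in 15.1% and 11.5% of microglia-like cells. For Axin2 the endothelial shares were 5.84% and 8.98% and the microglial shares 1.24% and 0.737%. Tspan12 was detected in 8.91% and 12.02% of endothelial-like and 1.52% and 0.442% of microglia-like cells. Lrp5 had 1.91% and 1.98% in endothelial-like cells and 1.43% and 2.06% in microglia-like cells, so its share was at the level of the comparison class.

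A thinned endothelial-like cell held on average 0.937 of the 8 members in the wild-type vehicle library and 1.11 in the library labelled Runx1 knock-out. No member was detected in 34.7% (32.4 to 37.1) and 27.0% (24.0 to 30.1) of them, and at least 3 members in 4.79% and 7.12%. In microglia-like cells the means were 0.301 and 0.204 members. At 1500 UMIs a cell without a member cannot be told from a cell in which it was missed.

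Endothelial-like cells were divided into arterial-like (503 and 254 cells), capillary-like (677 and 421) and venous-like cells (447 and 182), again without using the members. Lef1 was lower in arterial-like than in capillary-like cells in both libraries. It was at 146 CPM (133 to 159) in arterial-like, 186 CPM (174 to 199) in capillary-like and 195 CPM (181 to 210) in venous-like wild-type cells. In the library labelled Runx1 knock-out these levels were 212 CPM (187 to 240), 277 CPM (250 to 306) and 277 CPM (251 to 304). The arterial to capillary difference was -0.36 (-0.52 to -0.20) on the log2 scale in the wild-type vehicle library and -0.38 (-0.62 to -0.15) in the other, while venous-like and capillary-like levels overlapped. Of 5783 genes, 4.76% were lower in arterial-like cells by the same rule, an interval that excludes equality in both libraries. The sign held in each library under all 5 clusterings tried, with the smallest difference at Leiden resolution 1.0 in the wild-type library (-0.20, from -0.40 to -0.0032).

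Fzd4 was highest in venous-like cells, at 58.2 CPM (50.7 to 66.6) in the wild-type vehicle library and 71.6 CPM (59.1 to 86.0) in the library labelled Runx1 knock-out, against 45.3 and 47.1 CPM in capillary-like and 47.3 and 39.2 CPM in arterial-like cells. The venous to capillary difference was 0.36 (0.08 to 0.64) and 0.60 (0.15 to 1.07) on the log2 scale, and 3.92% of 5819 genes passed the same rule in that direction. It was met in both libraries under none of the other 4 clusterings. With the Wnt genes kept for clustering the differences were 0.11 (-0.32 to 0.51) and 0.27 (-0.18 to 0.71), and without the cell filter they were 0.43 (0.11 to 0.75) and 0.19 (-0.27 to 0.65). At resolution 1.0 no wild-type venous-like cells were named and the other library had 0.36 (-0.26 to 0.95). With each library clustered on its own the wild-type difference was 0.45 (0.15 to 0.75), and the other library had no venous-like class. In both runs a cluster with Dcn, Ackr1, Vcam1 and Wnt5a among its top genes was named fibroblast or meningeal and left out. It held 88 and 102 cells at resolution 1.0, and 112 cells of the library labelled Runx1 knock-out with separate clustering. The venous-like values at resolution 1.0 are thus of other cells than those described here. The venous-like cells of the library labelled Runx1 knock-out also held fibroblast markers at 743 CPM, against 172 CPM in the wild-type ones. In the main clustering 13 wild-type vessel cells were named fibroblast or meningeal and left out. No such cluster was split off in the other library, where the venous-like cluster had Dcn, Ptgds, Spp1 and Apod among its top genes. The part of this in the Fzd4 difference and the other venous-like values was not tested. Axin2 showed no segment order that both libraries shared, at 41.6, 45.5 and 43.7 CPM in arterial-like, capillary-like and venous-like wild-type cells and 74.2, 58.0 and 70.4 CPM in those of the library labelled Runx1 knock-out. Ctnnb1 was higher in arterial-like than capillary-like wild-type cells by 0.11 on the log2 scale (0.00042 to 0.22), and higher in venous-like than capillary-like cells of the library labelled Runx1 knock-out by 0.24 (0.07 to 0.41). At resolution 1.0 this last difference turned to -0.26 (-0.51 to -0.016). For Fzd6 and Tspan12 no segment differed from the capillary-like level beyond counting error in either library with the clustering used here. Without the cell filter Tspan12 had venous to capillary differences of -0.47 (-0.77 to -0.18) and -0.48 (-0.92 to -0.059), and with the Wnt genes kept it was higher in arterial-like than capillary-like wild-type cells by 0.26 (0.04 to 0.48). At resolution 1.0 Fzd6 had a venous to capillary difference of -0.74 (-1.38 to -0.16) in the library labelled Runx1 knock-out.

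Among the other genes of the pathway, the ligand gene Wnt5a, which mostly acts outside the beta-catenin route, had the widest range between segments. It was at 7.88 CPM in arterial-like, 24.0 CPM in capillary-like and 75.3 CPM in venous-like wild-type cells, and at 5.12, 24.7 and 82.9 CPM in the library labelled Runx1 knock-out. The venous to capillary difference was 1.65 (1.32 to 1.98) and 1.75 (1.20 to 2.34) on the log2 scale. Fibroblast markers in the venous-like cells were at 172 and 743 CPM, and their part in the Wnt5a levels was not tested. At resolution 1.0 the 170 venous-like cells of the library labelled Runx1 knock-out had 18.3 CPM and the difference was absent (-0.21, from -1.37 to 0.81). These were not the same cells. A joint cluster of 88 and 102 cells with Dcn, Ackr1, Vcam1 and Wnt5a among its top genes was named fibroblast or meningeal there. It had thus left the endothelial class.

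**Figure D3:**
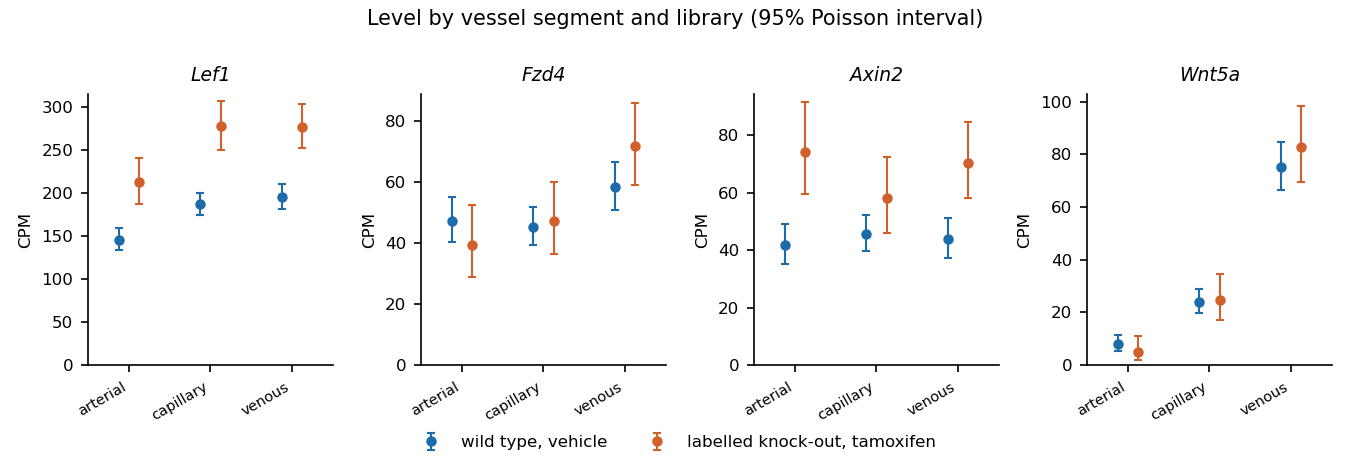
Level in CPM (vertical axes from 0) of Lef1, Fzd4, Axin2 and Wnt5a in arterial-like, capillary-like and venous-like cells, with points for the wild-type library (blue) and the library labelled Runx1 knock-out (orange) and bars for 95% Poisson intervals. Lef1 is lowest in arterial-like cells of both libraries, and Wnt5a climbs from 7.88 and 5.12 CPM in arterial-like to 75.3 and 82.9 CPM in venous-like cells.

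Between the libraries, the 6 measured members all had higher endothelial levels in the library labelled Runx1 knock-out, by amounts that mostly stayed under 1.5-fold, and 3 of the 6 turned to slightly lower when free RNA was subtracted. The log2 ratio of the library labelled Runx1 knock-out over wild type was 0.62 (0.41 to 0.83) for Axin2, 0.55 (0.44 to 0.65) for Lef1, 0.44 (0.24 to 0.62) for Tspan12 and 0.26 (0.17 to 0.34) for Ctnnb1. The Frizzled genes lay within counting error of equality, Fzd6 at 0.15 (-0.04 to 0.34) and Fzd4 at 0.13 (-0.10 to 0.35). Only Axin2 passed 1.5-fold, which makes 1 of 6 members, where 5.27% of 6296 measured genes were higher and 5.75% lower by that amount. Lrp5 (0.59, from 0.17 to 1.00) and Apcdd1 (0.31, from -0.60 to 1.17) were under 20 CPM and were not counted. Microglial markers in the same cells went from 9190 to 3679 CPM between the libraries, smooth muscle markers from 340 to 170 CPM and fibroblast markers from 124 to 339 CPM. Their part in the ratios was not tested. Subtracting free RNA brought Axin2 to 0.28, Lef1 to 0.21, Tspan12 to 0.04 and Ctnnb1 to -0.02, with Fzd4 at -0.16 and Fzd6 at -0.18, and median-of-ratios scaling brought Axin2 to 0.54, so the 1.5-fold call was lost under both.

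Other endothelial genes had ratios in the same range. The 12 endothelial markers had a median of 0.13, from -0.06 (Egfl7) to 0.60 (Tie1), with Flt1 at 0.49 and Cdh5 at 0.45, and all measured genes had a median of 0.09. The 6 measured members had a median of 0.35. By segment, Lef1 had nearly the same ratio in arterial-like (0.54), capillary-like (0.57) and venous-like cells (0.50). Axin2 was at 0.83 (0.43 to 1.22) in arterial-like, 0.69 (0.33 to 1.05) in venous-like and 0.35 (-0.04 to 0.73) in capillary-like cells, and these intervals overlapped.

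The wider Wnt list held 107 genes in the table, members included, of which 34 were measured in endothelial-like cells. Of these, 4 were at least 1.5-fold higher in the library labelled Runx1 knock-out (Reck, Adgra2, Notum and Axin2) and 0 were lower. Of all 6296 measured genes, 5.27% were higher and 5.75% lower by that amount. Reck reached 20 CPM only in the library labelled Runx1 knock-out, so it entered through the side where it is higher. The list median was 0.24, and without the members the median of 28 genes was 0.22. Of the 34 ratios 32 (94.1%) were above 0, beside 61.5% of all 6296 measured genes and 10 of the 12 endothelial markers. With free RNA subtracted the list median was 0.11 and 24 of 34 (70.6%) were above 0, beside 51.0% of all measured genes and 4 of the 12 endothelial markers. The counts above 0 in the groups below are to be read against these shares.

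Among ligands and agonists only Wnt5a and Wls, the carrier protein of Wnt secretion, were measured, at log2 ratios of 0.25 and -0.03. Wnt7a, Wnt7b and Ndp had no UMI in endothelial-like cells of either library, which allows up to 0.253 and 0.722 CPM. Of the receptors and coreceptors 7 of 22 were measured, with a median of 0.44 and all 7 ratios above 0, or 4 of 7 with free RNA subtracted. Adgra2 had 37.4 and 62.3 CPM (0.74, from 0.51 to 0.96), and its partner Reck had 17.1 and 28.6 CPM (0.74, from 0.40 to 1.07). Lrp6, the other coreceptor, was at 54.3 and 81.1 CPM (0.58, from 0.38 to 0.77), just short of 1.5-fold.

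Of the destruction complex and Dishevelled genes 10 of 17 were measured, with none called and a median of 0.17. The kinase genes Csnk1a1 and Gsk3b, which mark beta-catenin for destruction, were at 224 and 255 CPM and at 150 and 176 CPM in the wild-type vehicle library and the library labelled Runx1 knock-out. Of beta-catenin and its nuclear partners 10 of 17 were measured, with none called and a median of 0.21. Ctnnbip1, an inhibitor that binds beta-catenin, was at 230 and 257 CPM, and Tle1, a corepressor of TCF/LEF factors, at 54.8 and 79.4 CPM. Of feedback inhibitors and targets 5 of 25 were measured, with a median of 0.39 and all 5 ratios above 0, or 4 of 5 with free RNA subtracted. Nkd1, a Dishevelled antagonist, was at 251 and 305 CPM, Ccnd1 at 114 and 149 CPM and Tnfrsf19 at 86.9 and 110 CPM. Notum, an enzyme that inactivates Wnt ligands, was at 52.7 and 82.3 CPM (0.64, from 0.45 to 0.83).

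Barrier genes that depend on endothelial beta-catenin were measured for 11 of 12, and none passed 1.5-fold in either direction. Their median was 0.31 and all 11 ratios were above 0. With free RNA subtracted the median was -0.04 and 3 of 11 were above 0, beside a median of -0.15 and 4 of 12 for the endothelial markers. The tight junction gene Cldn5 was at 7003 and 7396 CPM (0.08), the glucose transporter Slc2a1 at 926 and 1194 CPM (0.37), Slco1c1, a carrier of thyroid hormone, at 614 and 792 CPM (0.37), and Abcb1a, an efflux pump, at 527 and 763 CPM (0.53). Cldn5 also served as an endothelial marker in naming the class. All 6 junction partners of beta-catenin were measured, with a median of 0.43. Ctnnd1 (0.70, from 0.48 to 0.92) and Cdh2 (0.93, from 0.53 to 1.32) passed 1.5-fold, as 5.27% of 6296 measured genes did upward. The 6 ratios were above 0 with and without free RNA subtracted, with a median of 0.16 after subtraction.

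**Figure D4:**
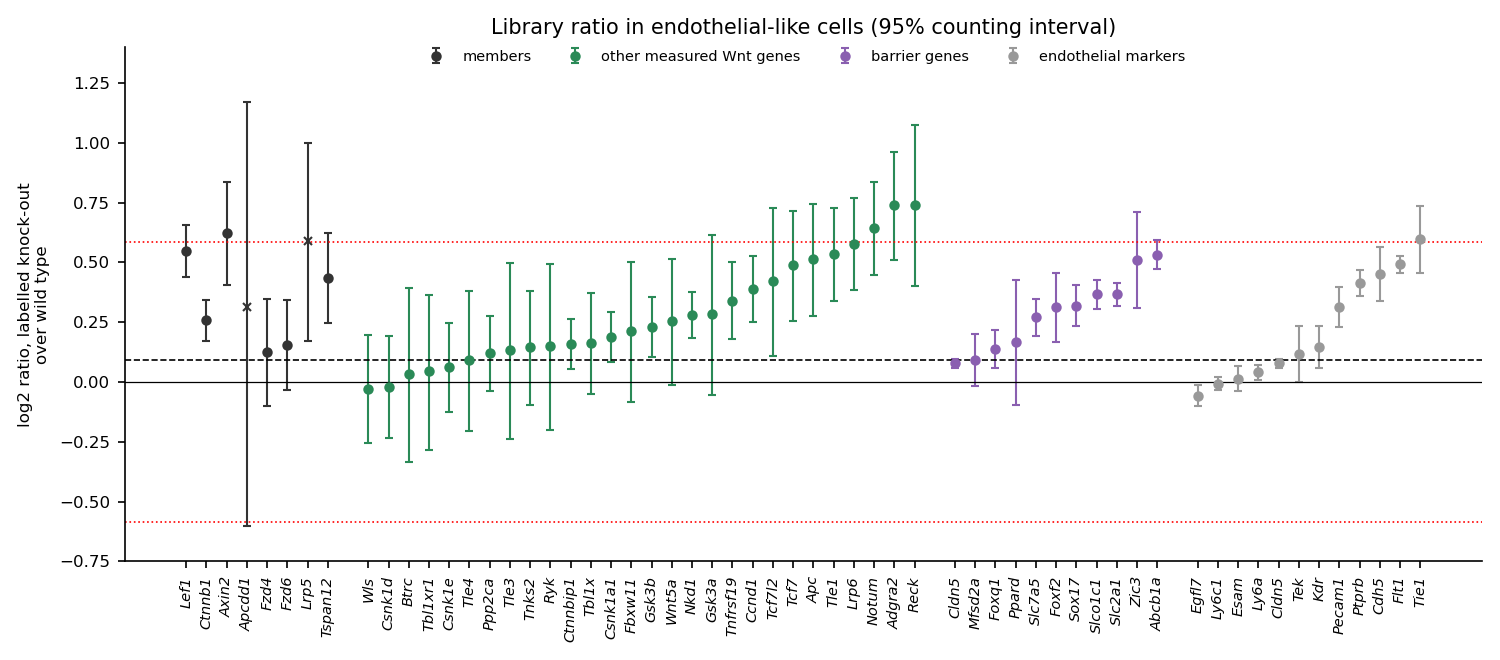
Log2 ratio of the library labelled Runx1 knock-out over wild type in endothelial-like cells for the 8 members, the 28 other measured Wnt genes, 11 barrier genes and 12 endothelial markers, with 95% counting intervals. Crosses mark members under 20 CPM, the dashed line the median of all measured genes (0.09) and the dotted lines 1.5-fold; Axin2 is the measured member above the upper dotted line.

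In mural-like cells 7 members reached 20 CPM, and Lrp5 passed 1.5-fold with 14.2 and 27.0 CPM (log2 0.93, from 0.04 to 1.80). These values rest on 28 and 21 UMIs. Lrp5 reached 20 CPM only in the library labelled Runx1 knock-out, so it entered through the side where it is higher. Of 6767 genes that entered by the same rule, 11.0% were higher and 8.45% lower by that amount. The other 6 lay within counting error of equality, from -0.02 (Tspan12) to 0.41 (Axin2). Erythrocyte markers in these cells were at 4114 and 18891 CPM, and their part in the ratios was not tested.

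In microglia-like cells the ratios of most members had the opposite sign. Lef1 was at 39.9 CPM in the wild-type vehicle library and 18.7 CPM in the library labelled Runx1 knock-out (log2 -1.09, from -1.39 to -0.80), and Ctnnb1 at 115 and 87.0 CPM (-0.41, from -0.55 to -0.27). These 2 were the members that reached 20 CPM, and only Lef1 passed 1.5-fold, as 12.4% of 5754 genes did downward and 8.12% upward. Lef1 reached 20 CPM only in the wild-type vehicle library, so it entered through the side where it is higher. Under 20 CPM, Tspan12 (-1.50), Fzd6 (-1.49), Axin2 (-1.44) and Fzd4 (-0.72) were lower too. Lrp5 was the exception, higher at 0.96 (0.55 to 1.36) with 120 and 92 UMIs. These signs depended on which cells the class held. At resolution 1.0 the class of the library labelled Runx1 knock-out took in 141 cells first placed in vessel clusters. With separate clustering it took in 150 such cells, and a cluster of 580 cells of that library was left unnamed. No wild-type vessel cluster was renamed in this way. The unnamed cluster held 436 and 2 cells at resolution 1.0, against 445 and 134 in cluster 4 of the main clustering. With separate clustering a wild-type cluster of 417 cells stayed unnamed. Both runs thus compared unlike sets of cells, and whether the renamed cells are those of cluster 4 was not tested. At resolution 1.0 Lef1 was at 40.1 and 37.3 CPM (-0.10) and its call was lost, and Ctnnb1 had a ratio of -0.03, Axin2 of 0.10 and Tspan12 of 0.53. With each library clustered on its own Lef1 turned to 0.36, Ctnnb1 to 0.18, Axin2 to 0.57 and Tspan12 to 1.00. With free RNA subtracted Lef1 fell to the minimum of 5 CPM in both libraries, and Ctnnb1 was at the minimum in wild-type cells and at 45.8 CPM in the other library, so that Ctnnb1 was then the member past 1.5-fold. The 12 endothelial markers in the same cells were all lower in the library labelled Runx1 knock-out, 10 of them by 1.5-fold, with a median of -1.57. The part of this endothelial RNA in the members' ratios was not tested.

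The genes most like each member were sought over 14 sums of cells (capillary-like, arterial-like, venous-like, mural-like, microglia-like, cluster 4 and erythrocyte cells of each library) among 7754 genes, by Pearson correlation of log2(CPM + 5). The sums share library and depth, and each value describes these sums only. For Lef1 the nearest genes were Ccdc141 (0.993), Parvb (0.992) and Unc45b (0.992), and for Ctnnb1 they were Erg, an endothelial transcription factor (0.994), Cdh5, the cadherin of endothelial junctions (0.991), and Slc30a1 (0.986). Axin2 lay nearest to Mecom (0.989), the tight junction gene Ocln (0.987) and the VEGF receptor gene Flt1 (0.984). Tspan12 lay nearest to Foxf2, a transcription factor of the brain vessel wall (0.989), Hip1 (0.988) and Ccser2 (0.988). Fzd6 lay nearest to Cobll1 (0.987), Adgrf5 (0.986) and Kif26a (0.985), and Fzd4 to Zhx3 (0.977), Tgfbr3 (0.975) and Casp12 (0.972). The nearest genes of Lrp5 were Zc3h11a (0.939), Zfp106 (0.939) and Rnpc3 (0.933), and those of the sparse Apcdd1 were Ppp4r1 (0.837), Fbxw11 (0.749) and Dhps (0.748).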

How the data were processed

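Single-cell 3' libraries of sorted mouse spinal cord cells, 1 per group, were deposited as raw UMI counts per gene and barcode; no normalization by the authors was found in these values. STAR, Cell Ranger 2.0.1, Seurat 2.1.0, mm10 and GRCm38.p5 are named, with no role or order, per the submitters' processing notes. Barcodes under 300 genes or above 10% mitochondrial UMIs were left out (0 and 8 barcodes). Both libraries were clustered together (scanpy 1.11.5, leidenalg 0.10.2, Leiden resolution 0.5, 2000 variable genes, 30 components, 15 neighbours) without Runx1, sex-linked genes, the members and all Wnt lists. Clusters were named from 21 marker lists. Vessel cells were then clustered again within each library for segments. The libraries separated in the joint clustering: microglia-like cells lay in cluster 0 (2175 and 5 cells) and cluster 2 (0 and 1351), and rebuilt names may differ from the study's.

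UMIs were summed by class and library and divided by the total of the same cells (CPM), with exact Poisson intervals, exact conditional binomial intervals for ratios and Clopper-Pearson intervals for shares, at 95%. A count of 0 was put at 3 counts per class and library. Genes entered at 20 CPM in at least 1 side. A 3' tag counts molecules, so values were not divided by gene length. The calls were 1.5-fold between libraries and 2-fold between classes. Members and lists were chosen with earlier results of these data known. Named genes were the 8 members, Runx1, of each Wnt list up to 4 measured genes with the highest endothelial level and those past 1.5-fold, and the 3 genes most like each member; Wnt7a, Wnt7b, Ndp, the segment values of Wnt5a and the single markers were added after their values were seen. Doublets were kept in the main values; Scrublet served as an alternative. Free RNA was subtracted in an alternative, with its share set by the markers of another class and a minimum of 5 CPM. On simulated endothelial sums (5907 genes), the interval held the true ratio for 96% of 50 genes raised 1.5-fold, 98% of 50 raised 2-fold and 95.3% of 5707 unchanged genes, and 48% of those raised 1.5-fold and 100% of those raised 2-fold were called. The simulated counts had counting error alone, as the interval assumes, with no free RNA and no spread between cells or animals. They check the calculation only.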

Additional observations from a re-analysis of the deposited data

Results flagged for a closer look

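Lef1, Axin2, Tspan12 and Ctnnb1 had library ratios of opposite sign in the 2 main classes, with intervals on either side of equality. In microglia-like cells the log2 ratio of the library labelled Runx1 knock-out over wild type was -1.09 for Lef1, -1.44 for Axin2, -1.50 for Tspan12 and -0.41 for Ctnnb1. In endothelial-like cells the same genes had ratios of 0.55, 0.62, 0.44 and 0.26. The difference between the classes was not tested, since each class has 1 library per group. The microglial sign did not hold under each clustering: with each library clustered on its own the microglial ratios were 0.36 for Lef1, 0.57 for Axin2, 1.00 for Tspan12 and 0.18 for Ctnnb1. That run compared unlike sets of cells. Under the knock-out label 150 cells first placed in vessel clusters joined the microglia-like class, and a cluster of 580 cells was left unnamed. In the wild-type library no vessel cluster joined it, and a cluster of 417 cells was left unnamed. Their part in these ratios was not tested. Endothelial markers in microglia-like cells had a median ratio of -1.57, and microglial markers in endothelial-like cells went from 9190 to 3679 CPM.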

How the results depend on the processing

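The 6 members that were 2-fold higher in endothelial-like than microglia-like cells stayed 6 under 15 of 16 alternatives and were 4 of 4 at a minimum of 50 CPM. The count of members past 1.5-fold in endothelial-like cells, 1 (Axin2), was 0 with median-of-ratios factors, with free RNA subtracted, without arterial-like and venous-like cells and, in an alternative chosen after seeing the data, without venous-like cells, and 2 at a minimum of 10 CPM. In mural-like cells the count of 1 was 2 in thinned cells and 0 at 50 CPM. In microglia-like cells the count of 1 (Lef1) was 2 with median-of-ratios factors and with mitochondrial, ribosomal and haemoglobin genes left out, 0 at resolution 1.0, with separate clustering and at 50 CPM, and 4 at 10 CPM; with free RNA subtracted it was 1 but the member was Ctnnb1. The count over mural-like cells, 0, was 1 with free RNA subtracted, and the median of the Wnt list, 0.24, was then 0.11. Leaving out the 9 barcodes found in both libraries, also added later, changed no count. The ratios ranged over 14 alternatives from 0.21 to 0.58 for Lef1, 0.28 to 0.71 for Axin2, 0.04 to 0.57 for Tspan12, -0.02 to 0.27 for Ctnnb1, -0.16 to 0.18 for Fzd4, -0.18 to 0.24 for Fzd6, 0.06 to 0.82 for Lrp5 and -1.08 to 0.37 for Apcdd1. The cause of each change was not tested. No paired analysis was possible because each group had 1 library and the labels carry no replicate numbers. Counting depth limited Apcdd1 and Lrp5 most.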
